A study of Mus musculus with 12 samples.

Results

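Osteoclasts were set against immature dendritic cells, phagocyte types grown from the same mouse marrow, in 8 of the 12 RNA sequencing libraries of a study of 3 myeloid cell types. The members are the 4 osteoclast and the 4 dendritic libraries, and the readout is the part of the authors' deposited table that compares osteoclasts with dendritic cells over 46072 genes. Marrow came from C57BL/6J mice aged 6 to 8 weeks, and the labels' protocols say that each of 4 extractions supplied all 3 cell types from 1 mouse. For osteoclasts, non-adherent marrow cells were expanded for 5 days in M-CSF at 100 ng/ml, replated with M-CSF at 30 ng/ml and RANKL at 50 ng/ml, and rid of cells with a single nucleus by Accutase at the end. Dendritic cells were grown in GM-CSF at 20 ng/ml, and the protocol names the M-CSF expansion for macrophages and osteoclasts only. Differentiation took 8 to 10 days for both. Macrophages, expanded like the osteoclasts and kept in M-CSF at 30 ng/ml without RANKL, are given as a point of reference only. The growth factors, the expansion step as described and the removal of single-nucleus cells all differ between osteoclasts and dendritic cells and cannot be told apart here.

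Osteoclasts are multinucleated cells that attach to bone, seal off the space beneath them, acidify it and secrete proteases into it. They form by fusion of precursors under M-CSF and RANKL, whose receptor RANK acts through NF-kappa-B, AP-1, calcium and the transcription factor NFATc1, with co-stimulation from receptors that pair with ITAM adaptors. GM-CSF instead acts through JAK2 and STAT5 and yields cells that take up antigen and present it to T cells on class II MHC molecules, and it is known to hold back osteoclast formation when given early. In bulk RNA, fewer cells of a type and less RNA per cell cannot be told apart.

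In the authors' deposited table, 3554 genes were called higher in osteoclasts (16.8% of the 21217 tested) and 4275 lower (20.1%), at the authors' adjusted p under 0.05. Between them the calls took in 36.9% of the genes tested. With the summed means of both cell types made equal, which adds 0.19 to every log2 ratio, the calls divided into 5321 higher and 3341 lower. The median log2 ratio of all genes tested was -0.05. Unless a test is named, "called" below means that adjusted p, a log2 ratio is that of the 2 deposited means with 1 added to each, and a fold is the ratio of the deposited means with nothing added. A log2 fold change, with the standard error implied by its p-value, is the authors' own. Deposited means are reads divided by the library's size factor and averaged over 4 libraries, so levels are per gene and not per length. For genes with a mean under 1000, the whole reads of each library were recovered from the deposited mean and are given as normalised reads in libraries a to d, letters that carry no link to a mouse. Among 15515 tested genes recovered in both cell types, the libraries of the 2 cell types did not overlap in 4842 (31.2%). The exact two-sided permutation test of 4 libraries against 4 cannot go below p = 0.0286.

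The labels held against the genes that define them. Calcr, the calcitonin receptor, gave 578, 583, 1292 and 568 normalised reads in the osteoclast libraries and 2.03, 2.04, 0 and 0 in the dendritic ones. The other osteoclast markers were Ctsk, the collagen-degrading cathepsin, and Oscar, a collagen-binding ITAM receptor, whose means by the authors' deposited table were 87805 against 1472 and 2313 against 7.15. The dendritic markers H2-Ab1, a class II chain, and Mgl2, a galactose lectin, lay the other way, at 369 against 43679.7 and 40.2 against 36265 by the authors' deposited table. Markers of other marrow cells were present in the dendritic libraries and are given below. Reads of the Y-linked genes Ddx3y, Uty and Eif2s3y were concentrated in 1 library of each cell type, osteoclast a, dendritic a and macrophage c, so that the libraries of a group differ in these genes: Ddx3y gave 1747, 32.8, 0 and 19.1 normalised reads in osteoclasts, 1389, 1.02, 0 and 10.3 in dendritic cells and 1.92, 0.974, 2719.6 and 1.97 in macrophages. The summed means were 2.42e+07 in osteoclasts and 2.77e+07 in dendritic cells by the authors' deposited table. Among genes with a recovered mean of at least 50, the median coefficient of variation between libraries was 12.8% in osteoclasts and 17.8% in dendritic cells.

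Single libraries stood apart to some degree. Among 465 recovered genes called at least 4-fold higher in osteoclasts, with a mean of at least 10, library d was the lowest of the 4 in 264 genes (56.8%), and its median ratio to the group mean was 0.745. Among 4286 genes not called, library d was the lowest in 24.3%, with a median ratio of 0.993. Library c was the highest in 40% of the 465 genes. In the dendritic cells, library a was the lowest in 37.3% of 1154 genes called at least 4-fold higher there, with a median ratio of 0.845, and in 33.1% of 4390 genes not called. Limma on the recovered genes called 1956 higher and 2704 lower with all 8 libraries, 1738 and 2337 without osteoclast library d, and 1904 and 2640 without dendritic library a. What sets these libraries apart was not tested.

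**Figure D1:**
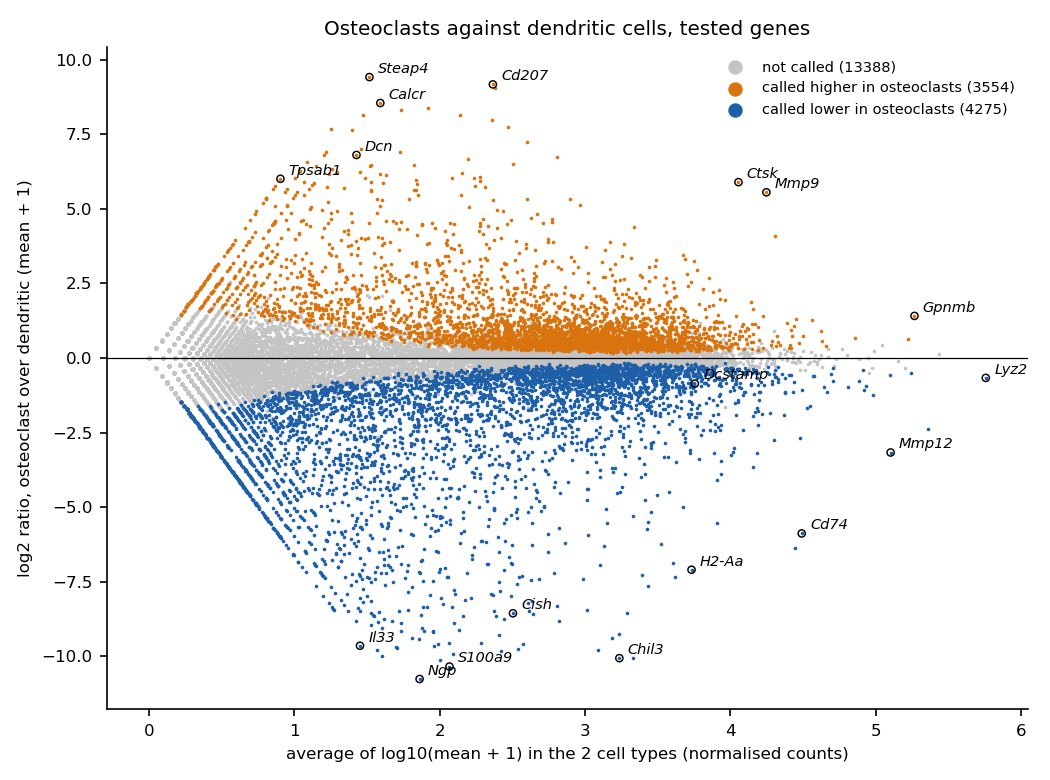
Log2 ratio of osteoclast over dendritic means, with 1 added (vertical axis), against the average of the 2 log10 means (horizontal axis) for the 21217 tested genes of the authors' table; orange points were called higher in osteoclasts, blue lower, grey not called. The named genes include Steap4, Cd207 and Calcr at the top and Ngp, S100a9 and Chil3 at the bottom, and the downward spread is the wider one.

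The genes farthest apart were the following. By the log2 ratio, among called genes with at least 10 CPM (counts scaled to the summed means) in the higher cell type, the 12 most osteoclast-sided were Steap4, Cd207, Cpe, Calcr, Vegfc, Mst1r, Oscar, Col4a6, Slc9b2, Col18a1, Slc6a17 and Msln. Steap4, a metalloreductase that reduces iron and copper, gave 429, 616, 1734 and 658 normalised reads in osteoclasts and a single read in dendritic cells, in library d. All 4 osteoclast libraries lay far above the dendritic ones, with library c the highest, and the osteoclast mean of 859 went to 568 without it, a drop of over 1.5 times. Mst1r, the receptor tyrosine kinase RON, gave 989, 785, 1544 and 577 against 5.09, 3.05, 0 and 0. Col4a6, a basement membrane collagen chain, gave 352, 511, 868 and 263 against 0, 0, 1.02 and 2.05, and Msln, mesothelin, gave 409, 331, 524 and 157 against 1.02, 0, 0 and 2.05. The libraries of the 2 cell types did not overlap in any of these 4, but the genes were picked by their ratio, so this adds no support. Over all 15515 tested genes recovered in both cell types, 31.2% did not overlap.

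Cd207 encodes langerin, the lectin that marks Langerhans cells, and it was nonetheless an osteoclast gene here: its osteoclast mean was 5585, its macrophage mean 1744 and its dendritic mean 8.67 by the authors' deposited table. Its 4 dendritic libraries held 10.2, 12.2, 5.10 and 7.18 normalised reads. The log2 ratio of Cd207 was 9.17, and the authors' log2 fold change was smaller, 7.38 ± 0.80. Cpe, a carboxypeptidase that trims peptide hormones, had means of 5516 and 9.43, and Vegfc, a lymphatic growth factor, 1510.1 and 3.57, by the authors' deposited table. Slc9b2, a sodium-proton exchanger of osteoclasts, was 269-fold higher and Col18a1, the source of endostatin, 224-fold higher by the means of the authors' deposited table.

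The 12 most dendritic-sided genes were Ngp, S100a9, Aldh1a2, Chil3, Ccl17, Retnla, Ccn3, Car4, Mgl2, Rab44, Asgr2 and Gpr171. Ngp, S100a9 and the lectin-like Chil3 are genes of neutrophils or alternatively activated macrophages. Chil3 had a mean of 56362 in dendritic cells by the authors' deposited table, and its osteoclast libraries held 40.7, 60.6, 62.1 and 43.3 normalised reads. Ccl17, a chemokine for CCR4-bearing T cells, had a dendritic mean of 69229.6 by the authors' deposited table and 49.7, 66.6, 69.1 and 71.5 normalised reads in osteoclasts. Aldh1a2, which makes retinoic acid, had a dendritic mean of 3352 by the authors' deposited table against 2.98, 0, 4.01 and 1.01 normalised reads in osteoclasts. For all 12 the macrophage mean was low as well, from 1.46 for Retnla to 64.9 for Ccl17 by the authors' deposited table.

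Some genes had reads in 1 of the 2 cell types only. Among called protein-coding genes, 56 had no read in any dendritic library, 14 of them with an osteoclast mean of at least 10. Another 237 had no read in any osteoclast library, 100 of them with a dendritic mean of at least 10. Genes of any type called higher in osteoclasts numbered 3554 and those called lower 4275. Called protein-coding genes were not counted by side, so the 56 and 237 are not given as shares. Tpsab1, a mast cell tryptase, was the highest of the first group, with 95.4, 107, 40.1 and 11.1 normalised reads in osteoclasts, 0 in dendritic cells and 0 in macrophages. Fbln7, a matrix fibulin, gave 57.6, 49.7, 82.1 and 24.2, and Bmpr1b, a receptor for bone morphogenetic proteins, gave 54.6, 66.6, 21.03 and 19.1. Library d held the lowest value of these 3 genes. Samd12 (54.6, 55.6, 71.1 and 19.1) and Tmem125 (38.7, 33.8, 67.1 and 21.2) complete the 5 highest. In the other direction Il33, an alarmin cytokine of the interleukin-1 family, gave 656, 1150.2, 993 and 403 normalised reads in the dendritic libraries. Fgf23, the phosphate-regulating hormone known from bone, gave 109.9, 229, 603 and 407, and its dendritic mean of 337 rests on all 4 libraries. Cd226, an adhesion receptor of lymphocytes, gave 361, 347, 393 and 210.3. Adgrg5 (161, 271, 136 and 623, with a mean of 297 that went to 189 without library d) and Gpr15 (173, 276, 157 and 393) complete that group. A count of 0 over 4 libraries allows up to 3 reads. Against that floor, Il33 was at least 1069-fold higher in dendritic cells and Tpsab1 at least 82.9-fold higher in osteoclasts, limits that cover counting error only.

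**Figure D2:**
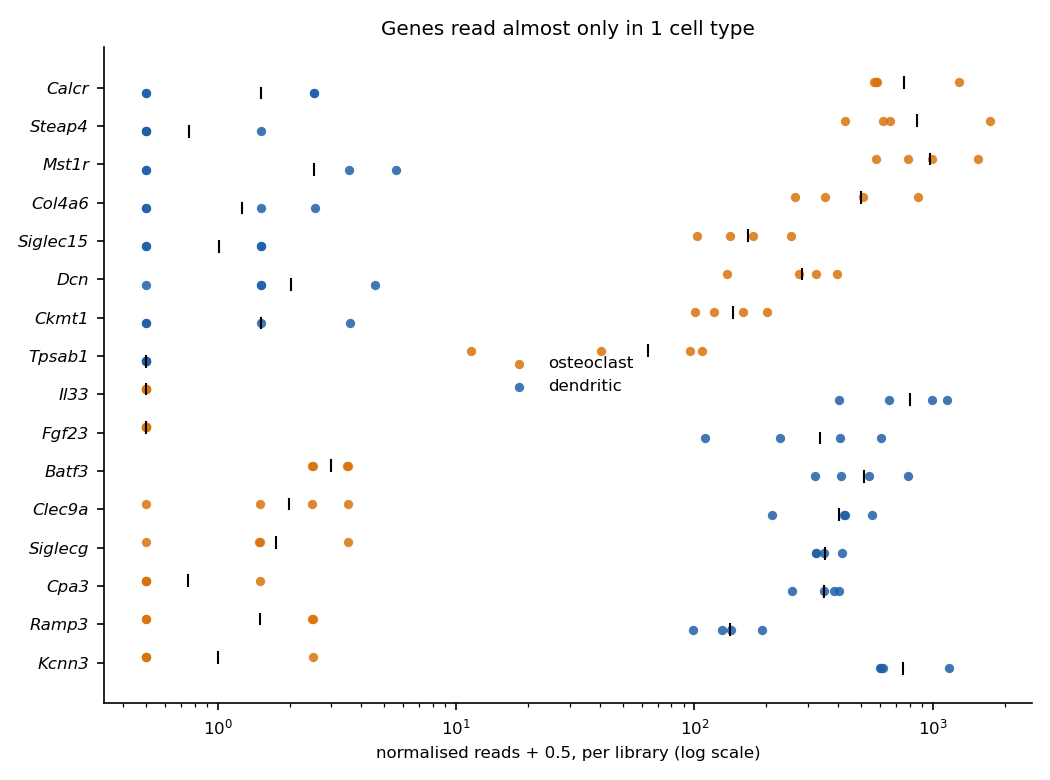
Normalised reads per library, on a log10 axis with 0.5 added, for 16 genes named in the text and recovered in both cell types; orange points are the 4 osteoclast libraries and blue points the 4 dendritic ones, and the short bars are group means. The upper 8 genes are read almost only in osteoclasts and the lower 8 almost only in dendritic cells, with no overlap between the libraries in any. The 16 were chosen for large differences, so this adds no support. Of all 15515 tested genes recovered in both cell types, 31.2% did not overlap.

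The most abundant transcripts overlapped in part. Lyz2, Ctsd, Fth1, mt-Co1 and Eef1a1 were among the 10 highest means of both cell types, and the 10 together held 8.37% of the summed means in osteoclasts and 11.05% in dendritic cells by the authors' deposited table. Osteoclasts alone had Gpnmb, a lysosomal and melanosomal glycoprotein also called osteoactivin, Ctsb, Ftl1, Mmp9 and mt-Cytb there. Dendritic cells alone had Psap, the saposin precursor, Mmp12, Ccl6, Cd74, the class II invariant chain, and Actb. Gpnmb had means of 301426 and 113248 and was 2.66-fold higher in osteoclasts by the authors' deposited table.

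Genes of the RANK cascade went both ways. Of 23 tested genes 10 were called higher and 6 lower (13 and 4 with summed means made equal), with a median log2 ratio of 0.19. Tnfrsf11a, which encodes RANK, had 602, 654, 544 and 530.3 normalised reads in the dendritic libraries and a mean of 4023 in osteoclasts and 2692 in macrophages by the authors' deposited table. It was 6.90-fold above its dendritic level (adjusted p = 2.78e-67 by the authors' deposited table). Fos, the AP-1 subunit without which osteoclasts do not form, was 21.2-fold higher, with means of 9998 and 471 by the authors' deposited table. Nfatc1, the master regulator that follows it, was 3.10-fold higher, and Nfkb2, of the alternative NF-kappa-B pathway, 2.04-fold higher by the authors' deposited table. Traf3, an inhibitor of that pathway, was 2.74-fold higher, by the authors' deposited table. On the lower side were Traf6, the adaptor that RANK recruits (1391 against 1984), Nfkb1 (4066 against 6223) and Map3k14, the kinase NIK (697 against 1295), by the authors' deposited table. The call of Traf6 was lost when summed means were made equal.

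Among co-stimulatory ITAM receptors some were far higher in osteoclasts, and the shared adaptors differed less. The list of receptors, adaptors and kinases had 13 of 28 called higher and 5 lower (17 and 3 with summed means made equal), with a median of 0.30. Siglec15, a sialic acid receptor of osteoclasts, gave 176, 140.1, 254 and 102 normalised reads against 1.02, 1.02, 0 and 0. No dendritic library held more than 1 read. The dendritic libraries of Oscar gave 8.14, 6.11, 5.10 and 9.23. By contrast the adaptor Tyrobp (DAP12) was only 1.36-fold higher, its partner Trem2 2.35-fold, and the adaptor Fcer1g was not called (16229.6 against 18944), by the authors' deposited table. The tyrosine kinase Src, needed for the ruffled border, was 2.65-fold higher, whereas Syk, which binds the phosphorylated ITAMs, was 1.42-fold lower in osteoclasts by the authors' deposited table, a call lost when summed means were made equal.

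Calcium signalling had 11 of 28 genes called higher and 7 lower (17 and 6 with summed means made equal), with a median of 0.19. The regulators of calcineurin Rcan1 and Rcan2 were among those higher. Rcan2 gave 20.9, 37.8, 35.04 and 17.1 normalised reads against 0, 1.02, 0 and 1.03, and Rcan1 was 3.39-fold higher by the authors' deposited table. The inositol trisphosphate receptors went opposite ways: Itpr3 was 2.91-fold higher and Itpr1 2.74-fold lower, with Itpr2 not called (901 against 909), by the authors' deposited table. The store-operated channels did so too, Orai2 being 2.60-fold higher and Orai1 1.78-fold lower by the authors' deposited table. Camk4, the calcium-dependent kinase upstream of CREB, was near the detection floor in both, at 1.99, 3.97, 8.01 and 3.02 and 6.10, 3.05, 6.12 and 17.4 normalised reads.

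The genes best known for osteoclast fusion were not called between the 2 cell types. Dcstamp and Ocstamp, the seven-span proteins that fusion requires, had means of 4231 and 1589 in osteoclasts and of 7666 and 2583 in dendritic cells by the authors' deposited table, and neither was called (adjusted p = 0.381 and 0.114). In macrophages they stood at 148 and 14.4, by the authors' deposited table. Of 23 fusion genes 10 were called higher and 6 lower (10 and 2 with summed means made equal), with a median of -0.07. Tm4sf19, a membrane protein of the fusion machinery, gave 722, 775, 1499 and 521 normalised reads against 172, 252, 181 and 193 and was 4.41-fold higher, by the authors' deposited table. Sh3pxd2a, the podosome scaffold TKS5, was 15.9-fold higher, and Dock5, a Rac activator of the sealing zone, 2.58-fold by the authors' deposited table. Adam12, a disintegrin protease, went the other way, with 0, 0, 0 and 2.02 against 76.3, 197, 144 and 222 normalised reads. The tetraspanins Cd9 and Cd81, which restrain or shape fusion, were lower in osteoclasts, 15339 against 22216 and 5101 against 6999, by the authors' deposited table, and both calls were lost when summed means were made equal.

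Resorption was the most osteoclast-sided of the osteoclast lists. In it 15 of 22 genes were called higher and 4 lower (15 and 1 with summed means made equal), with a median of 0.98. Mmp9, the gelatinase, had means of 121458 and 2579 and Acp5, the phosphatase TRAP, of 84237 and 4934 by the authors' deposited table. The acid side was represented by Clcn7, the chloride-proton exchanger (2.05-fold), Tcirg1, the osteoclast proton pump subunit (1.66-fold), Slc4a2, a bicarbonate exchanger (4.11-fold), and Snx10, a sorting nexin (2.38-fold), by the authors' deposited table. Slc37a2, a sugar phosphate carrier of secretory lysosomes, was 10.1-fold and Gpr137b, a lysosomal membrane protein, 4.84-fold higher by the authors' deposited table. Ostm1, the partner of Clcn7, was not called (2611 against 2739.6), and the carbonic anhydrase Car2 was lower in osteoclasts (818 against 1403, adjusted p = 0.0435), by the authors' deposited table. That call was lost when summed means were made equal, and the osteoclast libraries of Car2 gave 700.3, 679, 1318 and 575 normalised reads, with c the highest.

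Proteases and adhesion molecules were distributed between the 2 cell types. Of 22 matrix metalloproteinase and inhibitor genes only 2 were called higher in osteoclasts, Mmp9 and the inhibitor Timp2 (4.93-fold), and 12 were lower, with a median of -1.16, by the authors' deposited table. Mmp12, the macrophage elastase, had the highest dendritic mean of the family, 42245 against 379558 by the authors' deposited table. Mmp13 and Mmp8, both collagenases, were 26.9-fold and 44.9-fold lower in osteoclasts, and Mmp2, a gelatinase like Mmp9, 20.7-fold lower, by the authors' deposited table. Timp1, an inhibitor, was 85.8-fold lower, by the authors' deposited table. Timp3 was lower on few reads, 0.993, 0.994, 0 and 2.02 against 1.02, 53.9, 14.3 and 29.7, 1 dendritic library lay within the osteoclast range, and the dendritic mean of 24.7 went to 15.02 without library b.

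Integrin subunits were called on both sides. Among 18 alpha subunits 7 were called higher and 7 lower, and among 9 beta subunits 3 and 3. Itgav and Itgb3, which pair as the vitronectin receptor of the sealing zone, were 5.92-fold and 14.3-fold higher in osteoclasts by the authors' deposited table. Macrophages had an Itgav mean near that of osteoclasts, 8323 against 9778, and a low Itgb3 mean, 351 against 6965, by the authors' deposited table. Itga9 gave 258, 236, 222 and 321 normalised reads against 3.05, 2.04, 4.08 and 4.10, and Itga2, a collagen receptor chain, 148, 182, 195 and 98.7 against 4.07, 2.04, 3.06 and 14.4. Both sets were separated with no overlap. Macrophages had more Itga9 than osteoclasts, a mean of 1124, and almost no Itga2, a mean of 0.487, by the authors' deposited table. On the dendritic side stood Itgax (CD11c, 12.7-fold), Itga1 (161-fold, on an osteoclast mean of 11.8 that was 7.32 without library c) and Itgae (CD103, the partner of beta 7, with 68.2, 325, 75.5 and 674 normalised reads in the dendritic libraries against 7.95, 2.98, 18.02 and 11.1), the first pair from the authors' deposited table. The dendritic mean of Itgae, 286, was 156 without library d. The podosome list had 8 of 31 higher and 11 lower, and 11 higher and 9 lower with summed means made equal. Bcar1 (p130Cas), which Src phosphorylates, gave 237, 224, 204 and 122 normalised reads against 25.4, 9.16, 55.1 and 44.1. Tns3, a tensin, was 6.43-fold higher, and its relative Tns1 7.75-fold lower, by the authors' deposited table. Fscn1, the actin bundler of dendrites, gave 12.9, 12.9, 8.01 and 3.02 normalised reads in osteoclasts and had a dendritic mean of 917 by the authors' deposited table, and Zyx, zyxin, was 10.96-fold lower in osteoclasts.

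Receptors for calcitonin and its relatives separated by subunit. Calcitonin acts on osteoclasts through CALCR, and RAMP proteins change the ligand that CALCR or its relative CALCRL binds. Calcrl was 3.69-fold higher in osteoclasts by the authors' deposited table, alongside Calcr. Ramp1, by contrast, gave 1353, 527, 1115 and 553 normalised reads in dendritic cells and 14.9, 16.9, 2.00 and 2.02 in osteoclasts, and Ramp3 gave 142, 130.3, 98.00 and 192 and 1.99, 0, 2.00 and 0. Osteoclast libraries a and b held more Ramp1 than c and d. Of the 7 genes of the family that were tested, 2 were called higher and 3 lower, with a median of -1.41. Adm, adrenomedullin, a ligand of that family, was the third on the lower side, with a mean of 3.25 against 74.3 by the authors' deposited table.

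Secreted factors by which osteoclasts are known to reach osteoblasts had 7 of 20 called higher and 6 lower, with a median of 0.17. Cthrc1, a secreted coupling factor, gave 13.9, 13.9, 26.03 and 18.1 normalised reads against 0, 0, 0 and 1.03. Lif, an interleukin-6 family cytokine, gave 315, 352, 338 and 129.99 against 55.96, 84.5, 116 and 158, and here library d of the osteoclasts fell inside the dendritic range (exact permutation p = 0.0571 on the libraries, against an adjusted p of 0.000735 by the authors' deposited table). Pdgfb, a growth factor of vessels and progenitors, was 4.54-fold and Sema4d, a semaphorin that restrains osteoblasts, 1.89-fold higher by the authors' deposited table. Bmp2 had no p-value in the authors' table, and its recovered reads were 248, 227, 221 and 239.8 in osteoclasts and 11.2, 4.07, 0 and 5.13 in dendritic cells (exact permutation p = 0.0286). Vegfa, the angiogenic factor, was lower in osteoclasts (638 against 5029 by the authors' deposited table). Dpp4, a peptidase that trims incretins, gave 343, 762, 402 and 1228 in dendritic cells against 0, 0.994, 0 and 2.02.

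Signalling genes of the GM-CSF pathway lay on the dendritic side. The list of cytokine-induced STAT5 genes and their kinases had 0 of 19 tested genes higher and 16 lower in osteoclasts (2 and 14 with summed means made equal), with a median of -2.77. Cish, the feedback inhibitor that STAT5 induces most directly, gave 16.9, 22.9, 14.02 and 8.06 normalised reads in the osteoclast libraries and had a dendritic mean of 6202 and a macrophage mean of 21.8 by the authors' deposited table. It was 401-fold lower in osteoclasts (log2 fold change -8.55 ± 0.24, adjusted p = 2.07e-276 by the authors' deposited table). Socs2, another feedback gene, gave 13.9, 28.8, 19.02 and 10.1 in osteoclasts, with a dendritic mean of 3419 by the authors' deposited table. Socs1 gave 18.9, 15.9, 8.01 and 8.06 against 403, 230.04, 299 and 445 and Bcl2a1a, a survival gene with near-identical copies whose reads cannot be assigned surely, 32.8, 30.8, 18.02 and 5.04 against 809, 1122, 834 and 923. In both genes the libraries of the 2 cell types did not overlap. Pim1, a survival kinase, was 15.9-fold and Jak2, the kinase of the GM-CSF receptor, 7.04-fold lower by the authors' deposited table. Mcl1 (19448 against 17610.2) and Id1 (362 against 174) were not called, nor was Bcl2l1 (2124 against 2888), by the authors' deposited table.

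The sequence near the Cish start shows the kind of site through which STAT5 acts, which is why it is printed. It lies at chr9:107296656-107296681 on the plus strand of GRCm38.p6, within the RefSeq window of 250 bases before and 50 after the start. The capitals mark 2 matches to TTCNNNGAA, the palindrome that STAT dimers bind.
Cish: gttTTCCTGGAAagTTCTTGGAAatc
A match to TTCNNNGAA, the same on both strands, stood in 8.60% of 13089 tested genes with a RefSeq promoter window of 250 bases before and 50 after the start. The share was 7.93% of the genes called higher and 9.03% of those called lower, shares close to each other. Among genes called at least 4-fold higher or lower it was 7.39% and 9.83%.

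The receptors upstream were unequal. Csf2rb, the common signalling chain for GM-CSF, interleukin-3 and interleukin-5, was 6.37-fold lower in osteoclasts and the mouse-specific Csf2rb2 3.68-fold lower, paralogs whose reads may be shared, by the authors' deposited table. Csf2ra, the ligand-binding chain, was not called (5364 against 7218), by the authors' deposited table. Nor was Csf1r, the M-CSF receptor (34250.4 against 29251), although the final medium held M-CSF for osteoclasts and not for dendritic cells; both means are from the authors' deposited table. Of 10 colony-stimulating factor receptors tested, 0 were called higher and 6 lower, with a median of -1.77.

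**Figure D3:**
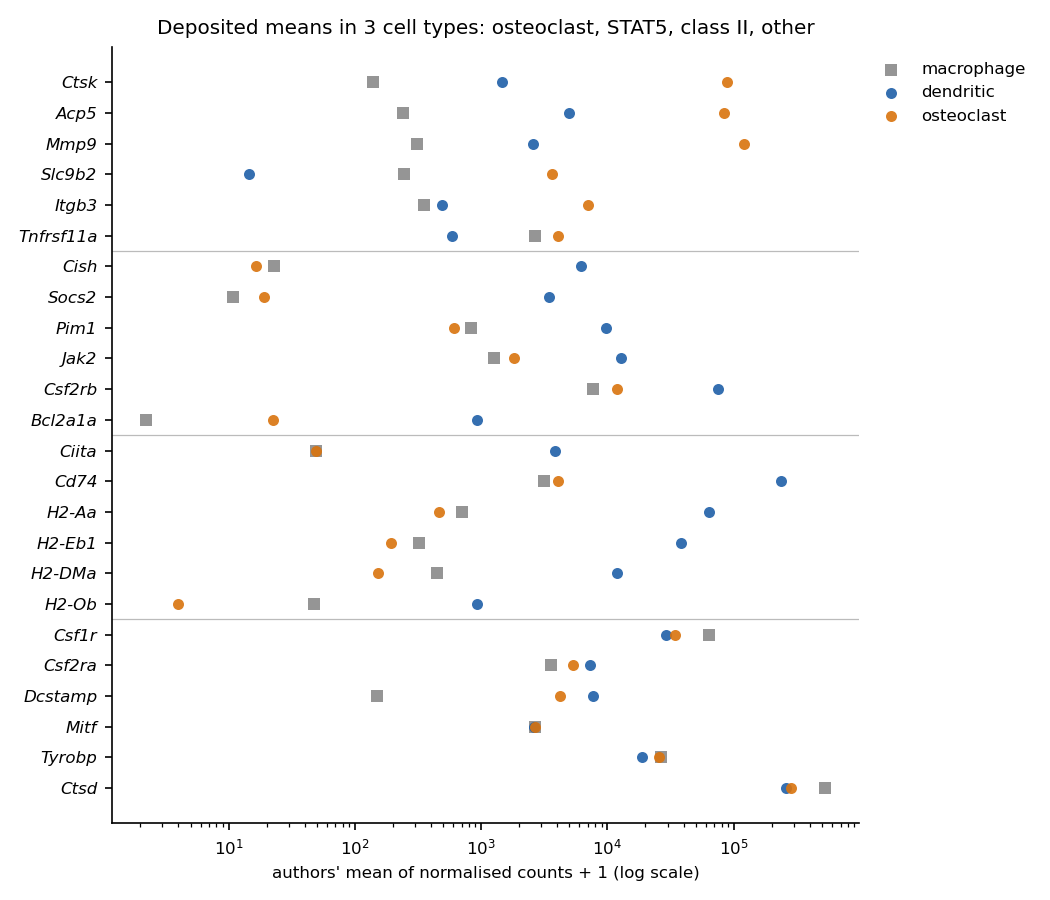
Deposited means of 24 genes in osteoclasts (orange), dendritic cells (blue) and macrophages (grey), on a log10 axis with 1 added; each point is the authors' mean over 4 libraries, so no error bar is drawn. From the top, 6 osteoclast genes have their highest mean in osteoclasts, then 6 of GM-CSF and STAT5 signalling and 6 of class II have theirs in dendritic cells, and 5 of the 6 at the foot were not called between osteoclasts and dendritic cells.

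Transcription factors leaned to the dendritic side. Of 55 lineage factors tested 9 were called higher and 26 lower, with a median of -0.40. Irf4, needed for type 2 dendritic cells, gave 21.9, 32.8, 32.04 and 53.4 normalised reads in osteoclasts and had a mean of 11403 in dendritic cells by the authors' deposited table. Batf3, needed for the cross-presenting type, gave 1.99, 2.98, 2.00 and 3.02 against 789, 319, 413 and 542. Nr4a3, an orphan nuclear receptor, gave 1.99, 2.98, 4.01 and 2.02 and had a dendritic mean of 2167, and Zbtb46, a factor that marks classical dendritic cells, was 15.6-fold lower, by the authors' deposited table. All 4 are low in osteoclasts and in macrophages alike, where their highest mean was that of Irf4, 123, by the authors' deposited table. Higher in osteoclasts were Id3, an inhibitor of basic helix-loop-helix factors (23.03-fold), Maf (9.56-fold), Jdp2, an AP-1 partner (9.42-fold), and Prdm1 (BLIMP1, which represses brakes on osteoclast formation, 2.93-fold), by the authors' deposited table. Those brakes lay on either side: Bcl6 was 2.21-fold higher and Irf8 1.96-fold lower, by the authors' deposited table. Mitf and Tfe3, which drive lysosomal and resorption genes, were not called (2661 against 2602 and 3793 against 3570.2), by the authors' deposited table. Spi1 (PU.1) was 1.35-fold higher, by the authors' deposited table.

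Within AP-1 and the immediate early genes 3 of 22 were called higher and 9 lower. The 3 were Fos, Jdp2 and Jun (1.57-fold), by the authors' deposited table. Those lower were led by Batf3, Batf (17.1-fold), Egr3 (10.6-fold) and Egr2 (10.3-fold), the last a zinc finger factor, by the authors' deposited table. The AP-1 motif TGANTCA stood in 11.6% of promoter windows of the genes called at least 4-fold higher, in 10.7% of those at least 4-fold lower and in 6.99% of all tested. TGGAAA, the core that NFAT binds, stood in 21.4%, 24.8% and 20.6% of the same sets, both strands searched. Of the 12 interferon regulatory factors and their binding partners tested, 1 was called higher and 6 lower (3 and 5 with summed means made equal). The interferon-stimulated response element that they bind stood in 1.40% (7 of 501 genes), 5.11% and 3.88% of the same sets. Over all genes called higher and all called lower, the AP-1 motif stood in 7.29% and 7.74%. TGGAAA stood there in 19.7% and 23.4%, and the response element in 2.93% and 4.65%. None of these shares was tested.

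Class II antigen presentation was lower in osteoclasts for most of its genes. Of 17 genes tested, 0 were called higher and 15 lower (2 and 15 with summed means made equal), with a median of -5.20. Ciita, the transactivator of the whole set, was 78.96-fold lower and Cd74, the invariant chain, 58.96-fold, by the authors' deposited table. The peptide-exchange chains H2-DMa (79.4-fold) and H2-DMb2 (124-fold) and the modulator H2-Ob (1.99, 3.97, 3.00 and 3.02 against 428, 895, 1028 and 1339 normalised reads) were lower along with the antigen-binding chains H2-Eb1 (201-fold) and H2-Aa (137-fold), the folds from the authors' deposited table. H2-Eb2 was far weaker in level, 30.5, 106, 40.8 and 151 normalised reads in dendritic cells against 1.99, 0, 0 and 3.02. The constitutive RFX subunits differed little: Rfxap was not called (265 against 209), and Rfx5 and Rfxank were 1.45-fold and 2.20-fold lower by the authors' deposited table.

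CIITA does not bind DNA itself. It joins factors on the X and Y boxes upstream of class II genes. RFX binds the X box and NF-Y the Y box. Whether the boxes bear on the calls was not tested. Stretches that hold both boxes in 5 class II genes are printed below. They are RefSeq promoter sequences of GRCm38.p6 on the plus strand of chromosome 17, and the capitals mark an X box pattern, written to cover the X boxes seen in them, and GATTGG of the Y box.
H2-Eb1: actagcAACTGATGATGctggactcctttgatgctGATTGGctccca
H2-Eb2: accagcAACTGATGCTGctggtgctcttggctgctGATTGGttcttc
H2-Ob: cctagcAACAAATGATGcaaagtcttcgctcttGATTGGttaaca
H2-DMb1: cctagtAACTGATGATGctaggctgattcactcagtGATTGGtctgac
H2-DMb2: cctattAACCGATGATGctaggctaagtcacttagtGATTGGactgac
The stretches lie at chr17:34305772-34305818, chr17:34325539-34325585, chr17:34238814-34238858, chr17:34153093-34153140 and chr17:34145122-34145169 in that order. The boxes are 16 to 19 bases apart and lie within 47 to 136 bases before the start. All 5 genes were called lower in osteoclasts, and H2-DMb1, the remaining one, was 14.9-fold lower by the authors' deposited table. The pattern was written after these sequences were seen, so its presence in them is no finding. Of 13089 tested genes with a promoter window 19 (0.145%) held both strings on any strand at any distance. They include 2 of the 2661 called higher and 5 of the 3035 called lower. Those 5 are the genes printed above, from which the pattern was written. Of 13 class II list genes with a window, 5 had both in this order.

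Class I presentation was shifted less. Of 25 genes 0 were called higher and 16 lower, with a median of -0.83. The classical chains H2-K1 (17819 against 23769.97) and H2-D1 (38068 against 33358) were not called, and the chains resemble each other closely, so reads may be shared between them; these means are from the authors' deposited table. B2m, their light chain, was 1.70-fold lower, the immunoproteasome subunit Psmb8 2.77-fold, and the peptide pump Tap1 3.03-fold lower by the authors' deposited table. The lipid- and metabolite-presenting Cd1d1 and Mr1 were farther apart, at 16.7-fold and 13.2-fold, by the authors' deposited table. Their osteoclast libraries gave 47.7, 102, 70.1 and 61.5 and 68.5, 118, 93.1 and 103 normalised reads.

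Costimulatory genes were mostly lower too. Of 24 ligands and related receptors 1 was called higher, Havcr2 (TIM-3, an inhibitory receptor, 7.28-fold), and 17 lower, with a median of -2.45, by the authors' deposited table. Cd86 was 6.12-fold lower in osteoclasts and Cd80 1.92-fold by the authors' deposited table. The PD-1 ligands were both lower, Cd274 10.02-fold and Pdcd1lg2 311-fold, by the authors' deposited table. Tnfsf8, the CD30 ligand, had 16.9, 31.8, 6.01 and 11.1 normalised reads in osteoclasts and a mean of 3888 in dendritic cells by the authors' deposited table. Cd40 was low in both and not called (69.5, 62.6, 189 and 199 against 73.3, 192, 104 and 325).

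C-type lectins held members at both ends. Of 34 tested 5 were called higher and 19 lower, with a median of -2.61. Besides Cd207, those higher were Colec12 (5.14-fold), Clec4a1 (4.49-fold), Clec12a (3.99-fold) and Clec4d (3.88-fold), by the authors' deposited table. On the dendritic side Clec9a, a receptor for dead cells, gave 211, 555, 423 and 426 normalised reads against 1.99, 0, 3.00 and 1.01. Cd209a, the mouse DC-SIGN, gave 90.6, 128, 91.9 and 201 and no read in osteoclasts. Olr1, a receptor for oxidised lipoproteins, was 292-fold lower, and Clec7a, which binds fungal glucans, 14.8-fold, by the authors' deposited table. Clec4n (dectin-2) was 46.4-fold lower while its cluster neighbour Clec4e (Mincle) was not called (3314 against 4879), by the authors' deposited table.

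**Figure D4:**
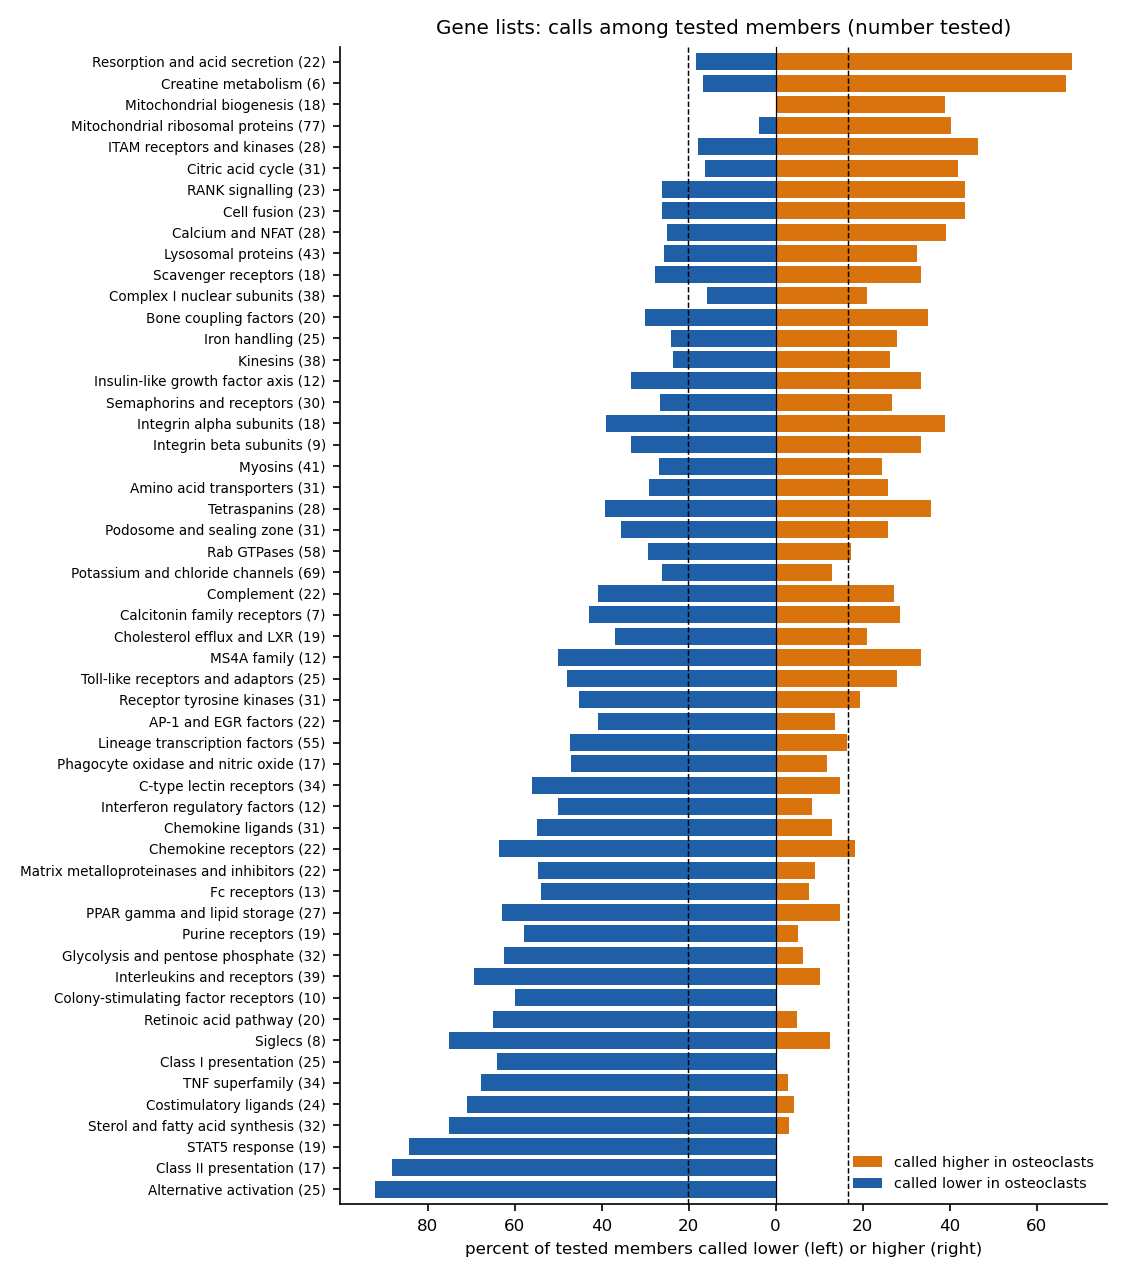
Percentage of tested members called higher (orange, to the right) and lower (blue, to the left) in osteoclasts for 54 gene lists, other cell types left out; the dashed lines are the shares over all 21217 genes, 16.8% higher and 20.1% lower. Resorption has the longest orange bar among the osteoclast lists, and alternative activation, class II and STAT5 response have the longest blue ones.

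Over interleukins and their receptors 4 of 39 were called higher and 27 lower, with a median of -1.52. Il1a gave 15.9, 15.9, 11.01 and 7.05 and Il1b 32.8, 40.7, 30.04 and 21.2 normalised reads in osteoclasts, with dendritic means of 5779.5 and 5615 by the authors' deposited table. Their antagonist Il1rn was high in both and 3.21-fold lower in osteoclasts, and the decoy receptor Il1r2 671-fold lower, by the authors' deposited table. Il6 gave 60.03, 40.7, 162 and 44.1 in dendritic cells, a mean of 76.8 that was 48.3 without library c, and no read in osteoclasts. Higher in osteoclasts were Il34, the second ligand of the M-CSF receptor (68.5, 82.5, 95.1 and 38.3 against 0, 1.02, 0 and 1.03), and Il10 (40.7, 55.6, 90.1 and 60.5 against 0, 1.02, 0 and 1.03). Il10rb (2.26-fold) and Il2rg (1.33-fold) were the others, by the authors' deposited table. Il2ra, the high-affinity chain for interleukin-2, gave 5.96, 2.98, 7.01 and 3.02 in osteoclasts and had a dendritic mean of 2701 by the authors' deposited table.

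In the TNF superfamily Tnfrsf11a was the single gene called higher among 34, and 23 were lower (4 and 21 with summed means made equal), with a median of -1.13. Tnf itself was 3.60-fold lower, and Tnfrsf9, the costimulatory receptor 4-1BB, 35.8-fold, by the authors' deposited table. The receptors Tnfrsf1a (4456 against 4325) and Ltbr (1976 against 1902) were not called, by the authors' deposited table. Tnfrsf1b, the second TNF receptor, was 1.95-fold lower by the authors' deposited table.

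Chemokine receptors and ligands were mostly dendritic. Of 22 receptors 4 were called higher and 14 lower, and of 31 ligands 4 and 17. Ccr7, which guides migrating dendritic cells to lymph nodes, gave 0, 3.97, 0 and 2.02 normalised reads in osteoclasts against a mean of 1186, and Ccr2, a monocyte receptor, was 357-fold lower, by the authors' deposited table. Cxcr3, a receptor for interferon-induced chemokines, gave 86.4, 93.4, 100.1 and 77.6 in osteoclasts, 1.02, 6.11, 0 and 3.08 in dendritic cells and 220.5, 250.3, 216 and 208 in macrophages, where it was highest. Cx3cr1, the fractalkine receptor, gave 1149, 1154, 528 and 581 against 151, 387, 444 and 252, with libraries a and b of the osteoclasts well above c and d, and had a macrophage mean of 5510.3 by the authors' deposited table. Among ligands, Ccl22 was 162-fold and Ccl6 82.6-fold lower, and Cxcl14 5.18-fold higher, by the authors' deposited table. Ccl9, a chemokine known from osteoclasts, was high in both and 1.97-fold lower in osteoclasts, and Ccl2 was not called (1639.7 against 6173), by the authors' deposited table.

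Receptors for microbes, antibodies and debris were mixed. Toll-like receptors and adaptors had 7 of 25 called higher and 12 lower. Tlr5, the flagellin receptor, gave 84.4, 96.4, 113 and 184 normalised reads against 5.09, 18.3, 18.4 and 25.6, while Tlr11, for profilin, had no read in osteoclasts and 136, 188, 145 and 107 in dendritic cells, and Tlr9, for bacterial DNA, gave 71.5, 68.6, 44.1 and 45.3 against 329.7, 361, 379 and 514. Of 13 Fc receptors Fcrl1 was the single one higher (9.38-fold) and 7 were lower, Fcgr2b 8.11-fold by the authors' deposited table. Fcgr1 and Fcrls were high in macrophages as well (1812 and 2609), and Fcgr1 gave 41.7, 52.7, 121 and 118 and Fcrls 21.9, 21.9, 28.04 and 41.3 normalised reads in osteoclasts, the macrophage means being those of the authors' deposited table. Siglec15 was the single sialic acid receptor higher among 8, and 6 were lower, led by Siglecg (350.02, 324, 322 and 415 normalised reads in dendritic cells, 0, 0.994, 1.00 and 3.02 in osteoclasts).

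Some genes called higher in osteoclasts had still higher means in macrophages. Id3 (1797 against 1380) and Clec4d (19263 against 18127), named above, were among them, by the authors' deposited table. Of 108 genes named here and called higher, 22 had a macrophage mean above the osteoclast one. Those genes were chosen for this text, and the same count over all 3554 genes called higher was not made. Stab1, a scavenger receptor, was 6.06-fold higher and had a macrophage mean of 33326, against 6789.8 in osteoclasts, by the authors' deposited table. Ms4a7 was 35.5-fold higher with a macrophage mean of 13482, and Ms4a14 gave 335, 446, 242 and 531 normalised reads in osteoclasts, 5.09, 12.2, 9.19 and 8.21 in dendritic cells and a mean of 1409 in macrophages by the authors' deposited table. Adgre1 (F4/80) was 3.64-fold higher, with a macrophage mean of 42421 by the authors' deposited table. The transcription factor Maf had a macrophage mean of 12236 against 2582 in osteoclasts, and the metabolic gene Fdft1 7951 against 3442, by the authors' deposited table. The MS4A family as a whole had 4 of 12 called higher and 6 lower, scavenger receptors 6 and 5 of 18, and complement genes 6 and 9 of 22. The complement receptor C5ar1 (7.03-fold) was higher, while Cfb, of the alternative pathway, was 151-fold lower and C3 2.24-fold, by the authors' deposited table.

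Genes of alternative activation had the lowest median of the lists that do not mark other cell types. None of 25 was called higher, 23 were lower and the median was -7.17. Arg1, arginase, gave 71.5, 66.6, 73.1 and 61.5 normalised reads in osteoclasts and had a mean of 41909 in dendritic cells, and Fn1, fibronectin, 82.4, 98.4, 114 and 103 and 37876, the dendritic means from the authors' deposited table. The eosinophil ribonucleases are a family of near-identical copies, so their reads may be shared: Ear2 had a mean of 10435 in dendritic cells by the authors' deposited table, and Ear1 gave 716, 988, 311 and 584 normalised reads there and 0.993, 0, 1.00 and 1.01 in osteoclasts. Stat6, the factor through which interleukin-4 acts, was not called (9345 against 8368), and Il4ra, its receptor, was 3.56-fold lower by the authors' deposited table.

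Metabolic genes divided by pathway. Creatine genes were osteoclast-sided, 4 of 6 called higher and 1 lower. Ckmt1, the mitochondrial creatine kinase, gave 159.9, 120.2, 201 and 99.8 normalised reads against 1.02, 0, 0 and 3.08, and Ckb, the cytosolic one, was 7.71-fold and the transporter Slc6a8 5.46-fold higher by the authors' deposited table. Gatm, the first step of creatine synthesis, was 1.87-fold lower, and Gamt, the second, 1.52-fold higher, by the authors' deposited table.

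Of 25 genes of iron handling 7 were called higher and 6 lower, and 11 and 4 with summed means made equal. Tfrc, the transferrin receptor, was 5.88-fold higher, with a macrophage mean of 2402, and the endosomal iron carrier Slc11a2 2.57-fold and reductase Steap3 2.40-fold higher, by the authors' deposited table. Trf, transferrin itself, was 75.01-fold lower and Lcn2, the siderophore binder of neutrophils, gave 1.99, 3.97, 1.00 and 0 normalised reads in osteoclasts against a dendritic mean of 1871, by the authors' deposited table. Slc40a1, the iron exporter, was not called, although its libraries did not overlap (379, 538, 717 and 366 against 342, 359, 256 and 329, exact permutation p = 0.0286, adjusted p = 0.178 by the authors' deposited table).

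Mitochondrial genes were shifted by small amounts. Of 77 mitochondrial ribosomal proteins 31 were called higher and 3 lower, with a median of 0.25, and of 18 biogenesis genes 7 and 0. Mrps6 gave 671, 539, 826 and 729.5 against 403, 348, 235 and 338 and was the farthest apart, at 2.09-fold, by the authors' deposited table. Ppargc1b, a coactivator of mitochondrial growth in osteoclasts, overlapped, with 438, 349, 402 and 244 against 431, 202, 298 and 290.3 (exact permutation p = 0.457). The macrophage mean of Ppargc1b was 34.99 by the authors' deposited table. Of 38 nuclear subunits of complex I, 8 were called higher and 6 lower, against 18 and 3 with summed means made equal and 3 and 4 at adjusted p under 0.01. Ndufa4, since reassigned to complex IV, was 4.04-fold higher and Ndufa12 1.76-fold by the authors' deposited table.

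Glucose and lipid genes lay the other way. 20 of 32 glycolytic and pentose phosphate genes were called lower and 2 higher, and 24 of 32 genes of sterol and fatty acid synthesis lower and 1 higher. Slc2a1, the glucose carrier GLUT1, was 3.59-fold and Hk2, a hexokinase, 5.12-fold lower by the authors' deposited table. The branch enzyme Taldo1 was 2.03-fold higher, by the authors' deposited table. Scd2, a desaturase, was 53.1-fold lower, whereas Fdft1, squalene synthase, was 1.83-fold higher, by the authors' deposited table. Mgll, a lipase for monoglycerides, gave 23.8, 34.8, 15.02 and 16.1 normalised reads in osteoclasts against a dendritic mean of 7017, and Nr1h3 (LXR alpha) was 7.22-fold higher, by the authors' deposited table. Pparg, often used to mark lipid-handling phagocytes, was not called, with 611, 736, 955 and 502 against 1130.4, 579, 1109.6 and 608 normalised reads.

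Retinoic acid genes were led by Aldh1a2. Of 20 tested 1 was called higher, the retinol dehydrogenase Rdh10 (336, 326, 254 and 284 against 107, 125, 103 and 94.4), and 13 lower (3 and 13 with summed means made equal). Cyp26b1, which breaks retinoic acid down, gave 77.3, 236, 384 and 188 in dendritic cells against 1.99, 0, 2.00 and 0, and Rbp4, the retinol carrier, 517, 684, 439 and 1200.00 against 4.97, 4.97, 3.00 and 3.02. Amino acid transporters were even, 8 of 31 higher and 9 lower, with 8 and 6 when summed means were made equal. Slc7a2, which carries arginine, was 17.2-fold and Slc7a11, the cystine carrier, 14.2-fold lower, and Slc38a2 1.91-fold higher, by the authors' deposited table.

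Of 30 semaphorin and plexin genes 8 were called higher and 8 lower. Plxna4 was 55.4-fold and Sema3c 70.4-fold higher, Plxnb2 10.9-fold, with macrophage means of 447, 538 and 17302 in turn, and Sema4a, a costimulatory semaphorin, 14.8-fold lower, by the authors' deposited table. Plxna1, the plexin best known in both osteoclasts and dendritic cells, was not called (13328 against 11947), by the authors' deposited table. Of 31 receptor tyrosine kinases 6 were higher and 14 lower. Egfr gave 476, 492, 544 and 429 normalised reads against 56.98, 133, 51.04 and 105 and Epha2 1088, 942, 816 and 877 against 52.9, 74.3, 57.2 and 51.3. Axl, which recognises dying cells, was 154-fold lower and its relative Mertk 2.78-fold lower by the authors' deposited table. Kit, the stem cell factor receptor, gave 55.96, 187, 159 and 261 in dendritic cells against 1.99, 1.99, 3.00 and 1.01.

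The tetraspanin Tspan7, which acts on the osteoclast cytoskeleton, was 25.2-fold higher, and Tspan2 gave 147, 406, 125 and 539 normalised reads in dendritic cells against 0.993, 0.994, 2.00 and 6.05, the fold being from the authors' deposited table. Tetraspanins had 10 of 28 higher and 11 lower, and 11 and 8 with summed means made equal. Among myosins (10 higher and 11 lower of 41) Myo1d was 10.6-fold higher, and the non-muscle Myh9 1.73-fold lower, by the authors' deposited table. Clic5, a chloride channel protein of the ruffled border region, gave 232, 284, 563 and 176 against 1.02, 2.04, 4.08 and 3.08, and the potassium channel Kcnn3 gave 601, 617, 1169.8 and 605 in dendritic cells against 0, 0, 2.00 and 0. Of 19 purine receptors 1 was called higher and 11 lower (3 and 11 with summed means made equal): the adenosine receptor Adora2a gave 163, 153, 202 and 210.3 against 7.95, 5.96, 6.01 and 2.02, and Nt5e (CD73), which makes adenosine, 278, 459, 1151 and 574 against 24.8, 28.8, 8.01 and 12.1. P2rx7 was not called (1338 against 1525 by the authors' deposited table).

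Of 43 lysosomal genes 14 were called higher and 11 lower, and 19 and 9 with summed means made equal. Arsb, which removes sulfate from matrix sugars, was 10.2-fold and Ctsl 2.41-fold higher in osteoclasts by the authors' deposited table. The cathepsins of antigen processing were lower, Ctsh 11.3-fold, Ctsc 3.83-fold and Ctss 1.93-fold, with Ctsd not called (284037 against 258929), by the authors' deposited table.

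Markers of other marrow cells moved with the dendritic side. Of the 17 neutrophil genes tested 16 were called lower in osteoclasts and 0 higher. The 11 recovered ones summed to 1089 to 2789.9 normalised reads in the dendritic libraries and to 14.1 to 35.04 in the osteoclast ones. Ly6g, which defines mature neutrophils, gave 271, 81.4, 271 and 162 in dendritic cells against 0.993, 0, 0 and 0. Mast cell and basophil genes had 12 of 13 lower and 1 higher, Tpsab1, and sums of 1453 to 2195 against 25.2 to 135. Cpa3, a mast cell carboxypeptidase, gave 403, 386, 257 and 348 in dendritic cells and 0, 0, 1.00 and 0 in osteoclasts, against the direction of Tpsab1. Eosinophil genes had 7 of 8 lower and 1 higher, Ccr3 (196, 216, 329 and 208 against 49.9, 34.6, 53.1 and 54.4), and Epx, the eosinophil peroxidase, gave 0.993, 3.97, 1.00 and 3.02 in osteoclasts and had a dendritic mean of 1139 by the authors' deposited table. The part of such cells in S100a9, Ngp, Lcn2, Mmp8 and the eosinophil ribonucleases above was not tested.

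Of 6 B cell markers tested 2 were called lower and 0 higher, and of 7 T and NK cell markers 3 and 0. Recovered B cell markers summed to 195 to 539 normalised reads in dendritic cells and 40.7 to 121 in osteoclasts, and T and NK cell markers to 69.4 to 90.3 and 25.03 to 42.3. Erythroid and platelet markers summed to 256 to 814 against 8.94 to 16.1, without Pf4, whose means were 566 in osteoclasts (344 without library d) and 2829.6 in dendritic cells by the authors' deposited table. Among stromal markers 1 of 12 was called higher in osteoclasts, Dcn, the matrix proteoglycan decorin, with 275, 395, 322 and 137 against 0, 4.07, 1.02 and 1.03, and 5 lower. The collagen chain Col1a2, which stromal cells make in quantity, was not called. It stood at 0, 0, 5.01 and 5.04 normalised reads in osteoclasts and at 0, 38.7, 0 and 13.3 in dendritic cells. The whole stromal list had summed means of 76004 in osteoclasts and 108718 in dendritic cells. Its 14 recovered members summed only to 201 to 443 and 331 to 2050 normalised reads per library. Whether stromal cells were present was not tested. Lepr, the leptin receptor, gave 173, 797, 1846 and 741 in dendritic cells, a mean of 889 that was 570.2 without library c, against 3.97, 2.98, 8.01 and 5.04.

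**Figure D5:**
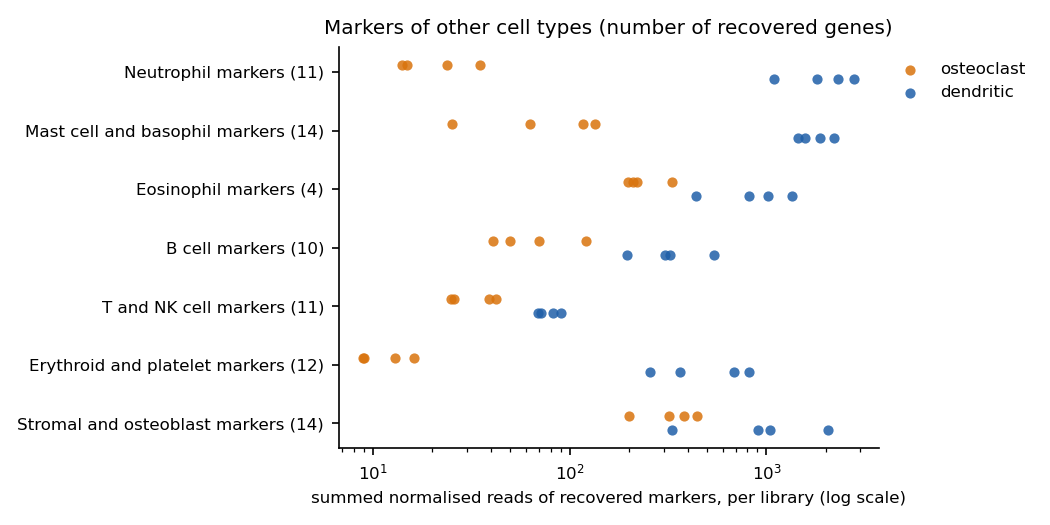
Summed normalised reads per library of the recovered members of 7 marker lists for other cell types, on a log10 axis; orange points are osteoclast libraries and blue points dendritic ones. Sums of all lists but the stromal one are separated between the cell types in every library, while stromal sums overlap. The stromal sums leave out the unrecovered members, which hold most of that list's summed means.

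For 41 genes there was a fold change and no p-value, so no call exists for them. Among them are Thbs1, thrombospondin 1, Plxdc2 and the nitric oxide synthase Nos2. Their osteoclast and dendritic means were 102 and 41868, 153 and 15996, and 33.5 and 1530.4 in turn, by the authors' deposited table. The log2 ratios of Thbs1 and Plxdc2 were -8.66 and -6.70. Both fall short of the -9.70 of Gpr171, the last of the most dendritic-sided genes listed above. The osteoclast libraries of Thbs1 gave 61.6, 103, 76.1 and 168 normalised reads. Aqp1, a water channel, gave 29.8, 35.8, 34.04 and 146 in osteoclasts and 0, 0, 0 and 1.03 in dendritic cells, and its osteoclast mean of 61.4 was 33.2 without library d. Arrb1, an arrestin, is listed with a dendritic mean of 0 and an osteoclast mean of 6745 but a log2 fold change of only 1.09 by the authors' deposited table, and no direction is drawn from these values.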

How the data were processed

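RNA was measured by sequencing of stranded mRNA libraries, 4 each of osteoclasts, dendritic cells and macrophages. The submitters' processing notes name GRCm38 and, among tools, DESeq2 2.13, Cufflinks 2.1.1, TopHat2, Bowtie2 and bcl2fastq. Which tool did what, the annotation and the strand setting are not stated there. Per the file headers, the authors' table gives for each pair of cell types 2 means, a log2 fold change, a p-value, an adjusted p-value and a mark for significance. The deposited means are normalised counts (a signal: reads over a size factor, then the mean of 4 libraries), as the smallest values show. The ratio of the deposited means and the authors' log2 fold change differed by over 0.5 in 15 of 10633 genes with both means at least 50. Genes named here are among them. Fn1 had a log2 ratio of -8.56 and an authors' log2 fold change of -6.05 ± 0.99. For Axl these were -7.26 and -6.42 ± 0.68, and for H2-Aa -7.10 and -6.46 ± 0.63. Cd207, with a dendritic mean of 8.67, fell outside that count and had 9.17 and 7.38 ± 0.80.

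The table has no column per library, so the count test could not be run and the calls are the authors'. Because each deposited mean is written with about 15 digits, the whole reads of 4 libraries were searched for whose weighted sum gives it. This gave 1 solution for 17313 of 17313 osteoclast genes with a mean above 0 and under 1000 and for 18269 of 18272 dendritic ones. On simulated reads 926 of 926 and 924 of 924 were recovered, 0 wrongly. Recovered size factors ran from 0.975 to 1.01 in these 8 libraries. Libraries are lettered by falling size factor within a cell type. Y-linked reads single out 1 library of each cell type, and the other 3 of each cannot be matched by mouse. Limma 3.58.1 (R 4.3.3) was run on log2 of the recovered normalised reads with 0.5 added. Tested on simulated data, 9453 genes with 200 changed 4-fold, it recovered 89% of them and called 5 others. Those counts were drawn independently, with a spread set in advance and far fewer changed genes than were called here. They do not measure how limma performs on these libraries. The standard error of a fold change is that fold change over the normal quantile of its p-value, taken as a two-sided Wald test. Replicates are separate mouse marrow extractions, each of which gave all 3 cell types, per the labels' protocols; whether the authors' test used that pairing is not stated.

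Symbols matched 45138 identifiers. Promoters are from RefSeq (GRCm38.p6), 250 bases before and 50 after a start, and motifs were searched on both strands. The members and the lists were chosen with earlier results of these data known. Genes named are the 12 largest and 12 smallest log2 ratios (called, 10 CPM or more on the higher side, without Gm, Rik, ribosomal and mitochondrial symbols), the 5 highest read in 1 cell type only, the 10 highest means, the 5 markers and members of the lists; Adgre1 and the genes without a p-value were added after their values were seen. Lists are described by counts and medians with no test. Alternatives were a stricter p, adjustment over all genes with a p-value, scaling by summed means or upper quartile, a filter at 1 CPM, a 2-fold minimum, limma with 2 pseudocounts and leaving out each library. The X and Y box strings and the library comparison were added after seeing the data.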

Additional observations from a re-analysis of the deposited data

Results flagged for a closer look

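In groups of 4 libraries, a sample stands out by Dixon's criterion when its gap to the nearest other takes up most of the group's range, and chance gives about 1 in 20 groups. Among the genes named above and recovered per library, with at least 10 normalised reads in the highest library, 15 groups had such a sample. The number of groups screened is not given, so the 15 cannot be set against that chance rate. Osteoclast library c was high for Calcr (1292 normalised reads), Car2 (1318) and Ccr3 (329). Osteoclast library d was high for Aqp1 (146), Pf4 (1231) and H2-Aa (850.4) and low for Lif (129.99), and osteoclast library b was high for Ear2 (25.8). Dendritic library c was high for Kcnn3 (1169.8) and Il6 (162), dendritic library d for Itga2 (14.4) and Tspan7 (94.4), and dendritic library a was low for Rfx5 (416). Ddx3y, a Y-linked gene, was high in 1 library of each cell type, at 1747 in osteoclasts and 1389 in dendritic cells. Library letters follow the size factor within a cell type and do not by themselves link libraries of different cell types. Causes were not tested.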

How the results depend on the processing

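With a minimum of 2-fold in the deposited log2 fold change, 1514 genes were higher and 2836 lower, in place of 3554 and 4275. The other alternatives on the whole table stayed within 1.5 times of those counts, from 2765 to 5321 higher and from 3341 to 4158 lower; the share called higher went from 45.4% to 61.4% when summed means were made equal. On the 15515 recovered genes the authors called 1989 higher and 2774 lower and limma 1956 and 2704, with 4310 of 4763 calls shared and 0 opposite; leaving out each library gave 1548 to 1904 higher and 2241 to 2640 lower. Of 246 named genes called, all kept their direction with pseudocounts of 0.5 and 5, with the deposited log2 fold change and with summed means made equal, which ended 5 calls. Lists whose majority of calls changed side were podosome genes, tetraspanins and Rab GTPases (10 higher and 17 lower to 17 and 13) with summed means made equal, complex I at adjusted p under 0.01, and amino acid transporters under both. No paired analysis was possible because the table has no library columns and the recovered libraries carry no replicate number. Y-linked reads single out 1 library of each cell type, which leaves 3 of each unmatched. Genes with a mean of 1000 or more have no value per library, and at low means a difference of a few reads is not detectable.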

Other observations

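Kinesins and Rab GTPases, which carry and direct vesicles, had calls on both sides. Of 38 kinesins 10 were called higher in osteoclasts and 9 lower (18 and 7 with summed means made equal), with a median log2 ratio of 0.52, and of 58 Rab genes 10 and 17 (17 and 13 with summed means made equal). In the insulin-like growth factor list 4 of 12 were higher and 4 lower. Htra1, a serine protease that cleaves binding proteins of that axis, was 20.8-fold above its dendritic level, with means of 1125 and 54.1 and a macrophage mean of 24.7, by the authors' deposited table. Igf1r, the receptor, gave 73.5, 88.4, 53.1 and 56.4 normalised reads in osteoclasts and 219, 295, 387 and 240.00 in dendritic cells.

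Among genes of the phagocyte oxidase, 2 of 17 were called higher and 8 lower. Cybb, the catalytic subunit, was 3.02-fold and Hvcn1, the proton channel that supports it, 3.28-fold lower in osteoclasts by the authors' deposited table. Potassium and chloride channels had 9 of 69 higher and 18 lower.

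Osteoclast library d was also the one most often lowest in genes called at least 4-fold higher in dendritic cells, by a smaller margin. Over 331 of them with an osteoclast mean of at least 10, library d was the lowest osteoclast library in 29.6%, against 21.5% to 26.3% for the others, and its median ratio to the osteoclast mean was 0.920, against 0.961 to 1.003. In the 465 genes called at least 4-fold higher in osteoclasts these values were 56.8% and 0.745. The genes were grouped by a contrast that uses the same libraries, so this is a description with no test.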
